A study of Mus musculus with 18 samples.

Results

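The genes of the insulin-like growth factor (IGF) system were examined in the mouse heart after a single 25 Gy dose of ionizing radiation (IR). The 10 genes were chosen by name and comprise both ligands, Igf1 and Igf2, the receptors Igf1r and Igf2r, and the binding proteins Igfbp2 to Igfbp7. All 10 were found among the 30072 genes of the deposited tables, and 9 passed the filter on low counts together with 15054 genes in all; Igfbp2 did not. RNA-seq was performed on the septum between the ventricles of 18 adult CD-1 mice, an outbred strain, in 3 groups of 6. Control mice were anesthetized with isoflurane but not irradiated, and the other mice were irradiated under the same anesthesia and collected at 2 weeks or at 6 weeks post-IR. Both sexes were used in every group, littermates served as controls, and the mice were at least 8 weeks old. The labels give neither the sex of each mouse nor the week at which controls were collected. The study's methods describe sham handling of the controls, irradiation of the whole heart by X-rays, and RNA from ventricular tissue, whereas the labels name the septum.

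IGF-I and IGF-II are secreted peptides related to insulin that promote growth and survival of many cells, the cardiomyocyte among them. Both signal through the tyrosine kinase receptor encoded by Igf1r, which acts through insulin receptor substrates and Shc1 on the PI3-kinase and MAP kinase cascades. The Igf2r product, also known as the cation-independent mannose 6-phosphate receptor, binds IGF-II and delivers it to lysosomes. Binding proteins hold the ligands outside the cell, and proteases such as pappalysin release them. In the adult, circulating IGF-I comes largely from the liver under growth hormone, while fibroblasts, macrophages and vascular cells make IGF components locally.

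The start regions of 4 binding protein genes are shown because these genes hold the extremes of the family in this tissue: Igfbp2 was near absent, Igfbp5 lies next to it and was abundant, Igfbp7 had the highest level per length, and Igfbp4 shared the level of Igfbp5. Igfbp2 (chr1:72824503-72852474, plus strand) and Igfbp5 (chr1:72857932-72874884, minus strand) face each other on GRCm38 with 5457 bases between their ends. Each sequence is the 250 bases before the transcription start in RefSeq (GRCm38.p6), read 5′ to 3′ on the strand of the gene, and capitals mark the letters TATAAA or GGGCGG on either strand.
Igfbp2 (chr1:72824230-72824479, plus strand): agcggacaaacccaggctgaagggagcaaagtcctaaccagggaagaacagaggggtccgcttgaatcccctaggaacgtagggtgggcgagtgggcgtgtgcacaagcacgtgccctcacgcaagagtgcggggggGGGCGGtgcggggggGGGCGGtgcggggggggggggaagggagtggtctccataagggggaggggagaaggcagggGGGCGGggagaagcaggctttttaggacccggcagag
Igfbp5 (chr1:72874866-72875115, minus strand): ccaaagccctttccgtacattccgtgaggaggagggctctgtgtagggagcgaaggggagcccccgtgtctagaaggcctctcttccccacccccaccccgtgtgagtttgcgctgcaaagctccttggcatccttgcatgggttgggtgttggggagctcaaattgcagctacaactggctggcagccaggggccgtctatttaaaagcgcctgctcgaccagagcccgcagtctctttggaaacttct
Igfbp7 (chr5:77408046-77408295, minus strand): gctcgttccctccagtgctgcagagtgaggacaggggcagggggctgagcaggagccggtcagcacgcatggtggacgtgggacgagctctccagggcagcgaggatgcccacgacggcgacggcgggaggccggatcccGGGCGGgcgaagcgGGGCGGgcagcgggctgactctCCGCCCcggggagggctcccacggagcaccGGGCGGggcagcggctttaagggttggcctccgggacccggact
Igfbp4 (chr11:99040994-99041243, plus strand): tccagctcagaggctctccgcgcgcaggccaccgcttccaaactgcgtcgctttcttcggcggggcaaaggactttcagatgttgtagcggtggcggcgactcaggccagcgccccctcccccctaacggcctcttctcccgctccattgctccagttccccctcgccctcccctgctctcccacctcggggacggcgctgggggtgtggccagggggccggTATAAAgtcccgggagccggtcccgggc
GGGCGG, the letters of a GC box, occurred 3 times before the first of the annotated starts of Igfbp2 and 4 times before Igfbp7, in part on the opposite strand, and not before Igfbp5 or Igfbp4. TATAAA occurred once, before Igfbp4. Of all 32851 RefSeq promoter windows of the same length, 32.7% held GGGCGG and 12.4% held TATAAA. The windows of Igfbp2, Igfbp5, Igfbp7 and Igfbp4 were 67.2%, 58.8%, 74% and 69.2% G or C, against a median of 52.4% over all windows. These matches describe the letters only.

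Library totals ranged from 11522979 to 15501002 estimated counts, so that 3 counts, the upper limit that a count of 0 allows, corresponded to 0.194 to 0.26 CPM (counts scaled to the library total). Scaling factors from TMM, a trimmed mean of log ratios between libraries, ran from 0.844 to 0.991 in controls and from 1.04 to 1.13 at 6 weeks post-IR, and mitochondrially encoded genes took 19.8 to 25.0% of counts in controls and 16.5 to 20% at 6 weeks. From here on CPM values were also scaled by the TMM factors, except in the filter on low counts and where the library total is named. The 8 cardiomyocyte markers, Myh6 and Tnnt2 among them, summed to 75530 CPM or more in every mouse. Their sum with TMM was lower at 6 weeks (79050 ± 3429 CPM) than in controls (100800 ± 9327 CPM; SD, n = 6), and 7 of the 8 genes were called lower. Marker values are not given on the library total, where the median of all genes was 0.24 higher at 6 weeks on the log2 scale. Macrophage markers summed to 166.5 to 496.8 CPM in controls, 322.2 to 410.8 at 2 weeks and 431.6 to 586.3 at 6 weeks, and 8 of 8 were called higher at 6 weeks; of the 8 fibroblast markers 1 was called lower at each time. The part of these shifts in the IGF results was not tested, and in bulk tissue fewer cells of a type and less RNA per cell cannot be told apart.

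Per transcript length, the binding protein genes Igfbp7, Igfbp4 and Igfbp5 and the receptor gene Igf2r were the most abundant members. Igfbp7, a secreted protein of vessel walls with low affinity for IGFs, averaged 124.3 ± 53.1 TPM (SD over 18 mice), a unit that divides by transcript length and scales each mouse to the same total. Igf2r followed at 60.1 ± 9.49 TPM, then Igfbp4 at 40.6 ± 11 TPM and Igfbp5 at 39.3 ± 8.10 TPM. A lower tier held Igfbp6 (13.8 TPM), Igf2 (12.7 TPM), Igf1r (10 TPM), Igfbp3 (9.63 TPM) and Igf1 (7.83 TPM). The only neighbours in this order whose ranges over the 18 mice did not overlap were Igfbp5 and Igfbp6, and Igf1 and Igfbp2. Igfbp4 exceeded Igfbp5 in 8 of 18 mice, so their order was not resolved; in controls Igfbp5 was the higher in 6 of 6 mice, and at 2 weeks Igfbp4 was the higher in 6 of 6. Igfbp2, a circulating carrier that is abundant in the fetus, had a count in 7 of 18 mice and 17 counts in all. Its highest value was 5 counts, in a mouse at 6 weeks. It was not tested.

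**Figure D1:**
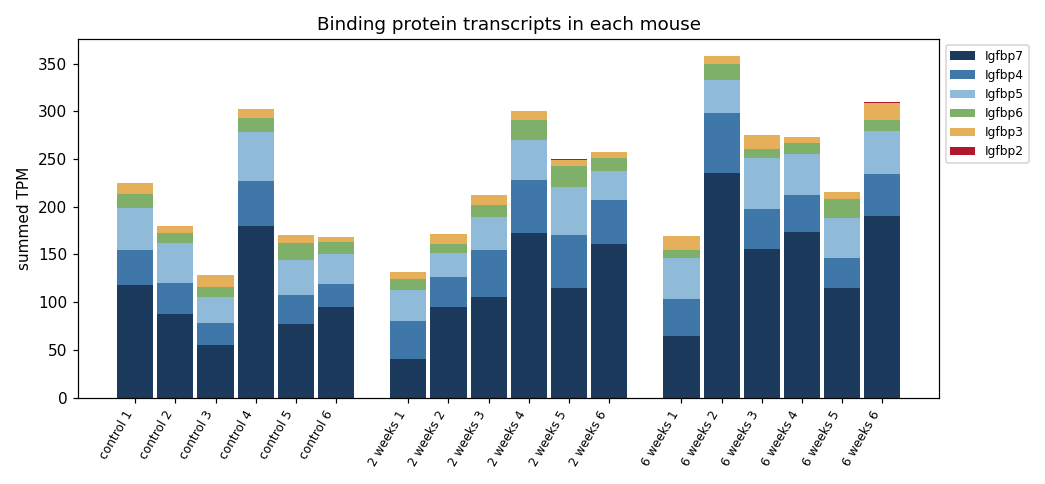
Transcript abundance of the 6 binding protein genes in each mouse, stacked, in TPM on the vertical axis, with the 18 mice on the horizontal axis by group. Igfbp7 is the largest layer in most mice and sets much of the height of the bars, which run from 128.5 to 358.1 TPM.

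To ask whether IR changed the family, the 3 groups were compared with edgeR's quasi-likelihood test, and a gene was called at an adjusted P under 0.05 over all genes tested. With TMM scaling and all 18 mice, no member of the 9 tested was called in any of the 3 comparisons. Over all genes, 5.04% were called at 2 weeks against control (3.1% higher and 1.93% lower), 25% at 6 weeks against control (13.5% higher and 11.5% lower) and 5.32% at 6 weeks against 2 weeks (3.31% higher and 2.01% lower). At an unadjusted P under 0.05, 1 member passed at 2 weeks (Igfbp5), 0 at 6 weeks and 2 at 6 weeks against 2 weeks (Igf2 and Igfbp4). Over all genes 20.4%, 36.2% and 21.3% passed this unadjusted limit in the same comparisons. DESeq2 and limma with voom quality weights each called 0, 0 and 1 member in these comparisons, and limma voom without weights called 0, 0 and 0. The median log2 fold change of the members was -0.02, 0.05 and 0.08, and the median size of their change, 0.05, 0.10 and 0.28, compares with 0.16, 0.22 and 0.15 over all genes. The values for single members below carry 95% intervals, since a P that misses the threshold does not show that levels were equal.

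**Figure D2:**
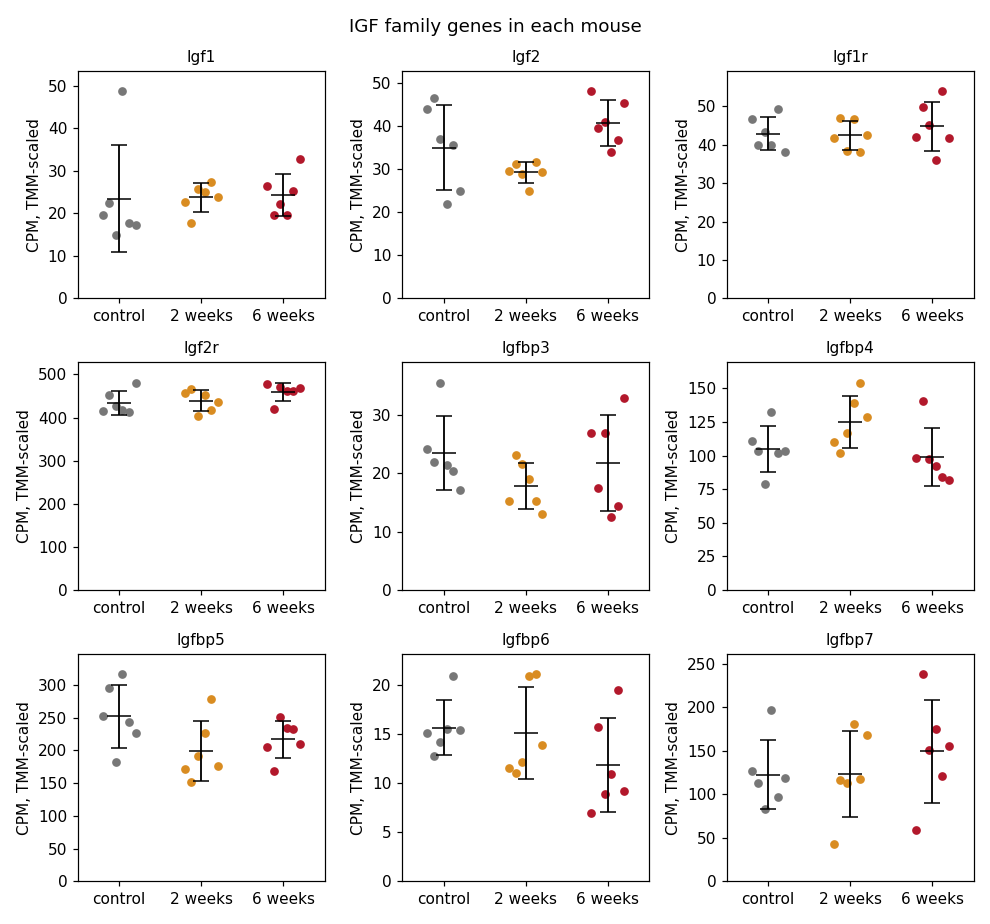
TMM-scaled CPM of the 9 tested genes (vertical axis, linear from 0) in each mouse of the 3 groups; each point is 1 mouse, and the bar is the mean with 1 SD. Groups overlap in every panel except Igf2 at 2 against 6 weeks, and 1 control mouse stands apart for Igf1 at 48.6 CPM.

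Of the ligands, Igf2 was the member whose groups separated over time. Igf2, an imprinted fetal growth factor (chr7:142650766-142666816, minus strand), ranged from 21.9 CPM over a median of 36.4 to 46.6 in controls, from 25.0 over 29.5 to 31.8 at 2 weeks, and from 33.9 over 40.2 to 48.1 at 6 weeks. All 6 mice at 6 weeks lay above all 6 at 2 weeks, while controls spanned both; groups did not overlap between these times for 3.53% of all genes. At 6 weeks Igf2 was 1.39-fold the level at 2 weeks (95% interval 1.12 to 1.73), with an adjusted P = 0.0676, short of the threshold. It was past the threshold in 10 of 31 alternatives. These were DESeq2 (adjusted P = 0.0320), voom quality weights (0.0343), the library total (0.0292), log2(TPM + 1) (0.0471), a fit of only the 2 groups (0.0101), a term for Y-linked transcripts (0.0369), the replicate number as a block (0.0489), and leaving out control 4, control 6 or the mouse 6 weeks 4 (0.0271, 0.0485 and 0.0486). Summed Y-linked transcripts were 0 to 1.76 CPM in mice 1 to 3 of each group and 128.6 to 164 CPM in mice 4 to 6, and the 3-group model had no term for them. Over the 31 alternatives the adjusted P ranged from 0.0101 to 0.141 and the log2 fold change from 0.42 to 0.60. Against controls the log2 fold change was -0.26 at 2 weeks (95% interval -0.57 to 0.05) and 0.22 at 6 weeks (-0.09 to 0.53). Igf2 overlaps Gm49394 and Mir483 on its own strand and Igf2os on the other, and the counting could split reads between them.

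Igf1 (chr10:87858265-87937042, plus strand), the growth hormone responsive ligand, had nearly equal group means of 23.4 ± 12.6, 23.7 ± 3.34 and 24.3 ± 5.02 CPM (SD, n = 6). It ranged from 14.8 CPM over a median of 18.6 to 48.6 in controls, from 17.8 over 24.4 to 27.4 at 2 weeks, and from 19.6 over 23.7 to 32.8 at 6 weeks. Control 4 alone exceeded every irradiated mouse, and the other 5 controls reached at most 22.4 CPM. With TMM and all mice, the log2 fold change was 0.01 at 2 weeks (95% interval -0.47 to 0.50, adjusted P = 0.983) and 0.05 at 6 weeks (-0.43 to 0.53, adjusted P = 0.913). In TPM the group means were 6.10, 7.76 and 9.62. Igf1 was called higher at 6 weeks with log2(TPM + 1) and with log2(TPM + 0.1), all mice included. Relative to the median of all genes, its log2 fold change at 6 weeks was 0.37 with log2(TPM + 1), 0.07 with TMM and 0.06 on the library total. Without control 4 the log2 fold change with TMM was 0.40 ± 0.141 (SE) at 6 weeks, with an adjusted P = 0.0433. The same mouse had fibroblast markers at 4004 CPM and macrophage markers at 496.8 CPM, against at most 1788 and 265.5 CPM in the other controls, and the lowest Igf2 of all mice; the part of these markers in its Igf1 level was not tested.

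The receptors varied least within groups. Igf1r (chr7:67952827-68233668, plus strand) ranged from 38.2 over 41.6 to 49.2 CPM in controls, from 38.2 over 42.2 to 46.9 at 2 weeks and from 36.1 over 43.6 to 53.9 at 6 weeks. Its groups overlapped throughout, with log2 fold changes of -0.02 (95% interval -0.21 to 0.18) and 0.06 (-0.13 to 0.25) against control. Igf2r (chr17:12682406-12769664, minus strand) ranged from 412 over 421.7 to 480.3 CPM in controls, from 402.8 over 444.2 to 467 at 2 weeks, and from 419.8 over 465.6 to 478 at 6 weeks. Its log2 fold change was 0.02 (-0.10 to 0.13) at 2 weeks and 0.09 (-0.03 to 0.20) at 6 weeks, so that changes beyond 0.94-fold to 1.15-fold lay outside both intervals.

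The receptor result depended on how mice were set on one scale. Without TMM, as CPM of the library total, Igf2r was 374.5 to 412.2 in controls, 413.7 to 473.5 at 2 weeks and 463.6 to 539.8 at 6 weeks, and no irradiated mouse overlapped the controls. In TPM it was 48.3 to 54.5, 55.2 to 65.4 and 64.4 to 77.2. On the library total, Igf2r was called higher at 2 weeks (log2 fold change 0.17, adjusted P = 0.0425), and Igf2r, Igf1r and Igf2 were called higher at 6 weeks (0.35, 0.32 and 0.48; adjusted P = 5.23e-05, 0.0167 and 0.0213). The same scale moved the median of all genes on the log2 scale to 0.15 at 2 weeks and 0.24 at 6 weeks, and log2(TPM + 1) moved it to 0.18 and 0.29. It also turned the calls over all genes from 2028 higher and 1731 lower at 6 weeks to 5490 higher and 326 lower, from 467 and 291 to 1706 and 82 at 2 weeks, and from 498 and 303 to 1098 and 104 between the times; log2(TPM + 1) gave 7354 and 118, 2774 and 39, and 1026 and 47. Relative to the median gene, the log2 fold change of Igf2r at 6 weeks was 0.11 on the library total, 0.10 with TMM and 0.19 with log2(TPM + 1), and that of Igf1r was 0.08, 0.08 and 0.12.

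**Figure D3:**
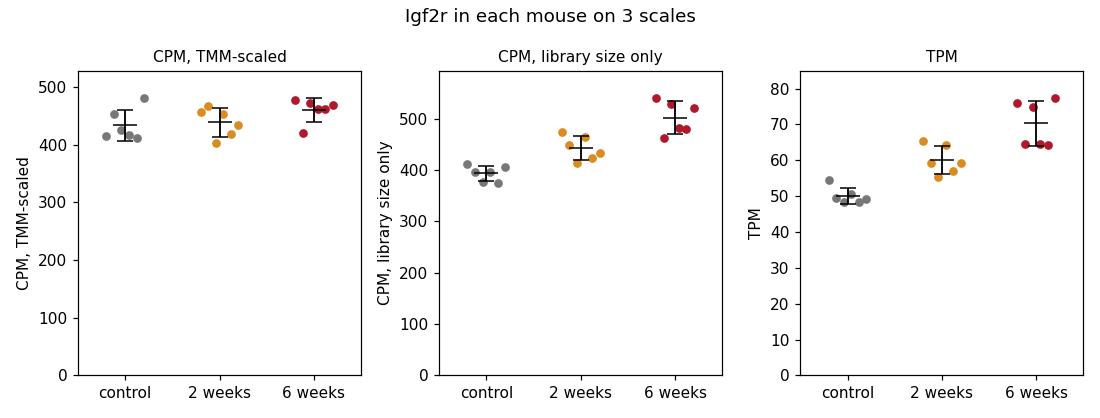
Igf2r in each mouse of the 3 groups on 3 scales: CPM after TMM, CPM of the library total, and TPM (vertical axes, linear from 0; bars are the mean with 1 SD). Groups overlap with TMM, whereas controls lie below both irradiated groups on the other scales.

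Among the binding proteins, changes ran in both directions and none was called. Igfbp5, which binds extracellular matrix, ranged from 182.1 over 247.7 to 316 CPM in controls, from 152 over 184.3 to 278 at 2 weeks and from 168.5 over 221.1 to 250.6 at 6 weeks. It was 0.79-fold the control level at 2 weeks (95% interval 0.64 to 0.97, adjusted P = 0.184) and 0.86-fold at 6 weeks (0.70 to 1.06, adjusted P = 0.290). Igfbp4, an inhibitor of IGF action that pappalysin cleaves (chr11:99041244-99054392, plus strand), ranged from 78.6 over 103.5 to 132.4 CPM in controls, from 102.2 over 122.7 to 154.1 at 2 weeks and from 81.8 over 94.9 to 140.8 at 6 weeks. Its log2 fold change was 0.25 at 2 weeks (-0.03 to 0.53, adjusted P = 0.305), -0.08 at 6 weeks (-0.37 to 0.20), and -0.34 between the times (-0.62 to -0.06, adjusted P = 0.151). Without the mouse 6 weeks 2, which at 140.8 CPM stood above the other 5 of its group (81.8 to 98.4), the last value was -0.46 with an adjusted P = 0.0325.

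Igfbp3, the main serum carrier of IGFs (chr11:7206086-7213923, minus strand), ranged from 17.1 over 21.7 to 35.5 CPM in controls, from 13.0 over 17.2 to 23.1 at 2 weeks and from 12.5 over 22.2 to 33.0 at 6 weeks. Its log2 fold changes of -0.39 (-0.86 to 0.08) and -0.10 (-0.57 to 0.37) had wide intervals. Igfbp6, which prefers IGF-II (chr15:102144362-102149511, plus strand), ranged from 12.7 over 15.3 to 20.9 CPM, from 11.1 over 13.0 to 21.1 and from 6.92 over 10 to 19.5 in the 3 groups in turn. At 6 weeks 4 of 6 mice lay below every control, yet the other 2 did not, and the log2 fold change was -0.41 (-0.89 to 0.07, adjusted P = 0.215). Igfbp7 (chr5:77349240-77408041, minus strand) ranged from 83.2 over 116.2 to 196.9 CPM, from 42.4 over 116.8 to 181.1 and from 58.7 over 152.7 to 237.6. Its interval at 6 weeks, 0.78-fold to 1.91-fold, was the widest of the family in that comparison. It overlaps Gm34648 and Polr2b on the other strand, and whether counting used strand is not given in the sources used here.

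**Figure D4:**
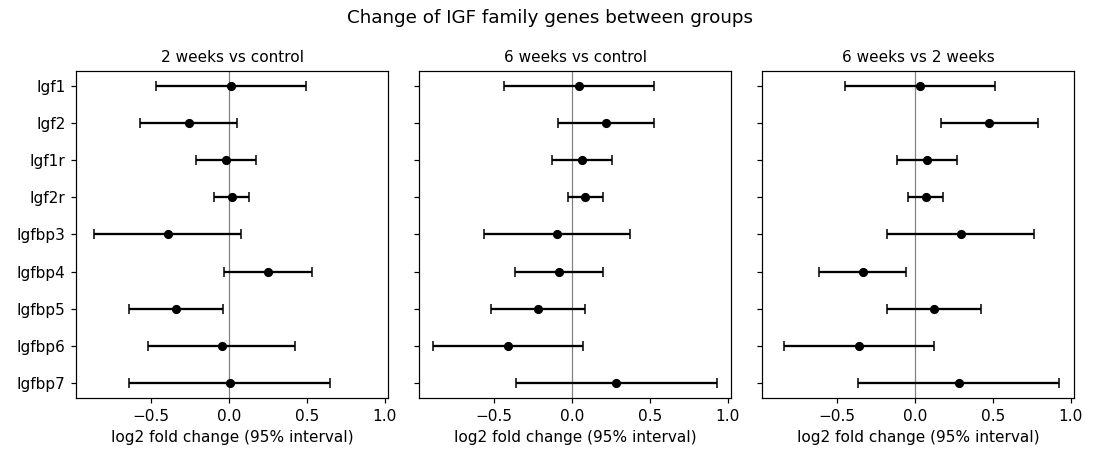
Log2 fold change (horizontal axis) of each tested gene with its 95% interval from edgeR's quasi-likelihood fit, for 2 weeks against control, 6 weeks against control and 6 weeks against 2 weeks. Intervals for Igf1r and Igf2r are the shortest and lie around 0, and those for Igf2 (0.17 to 0.79) and Igfbp4 (-0.62 to -0.06) in the last panel exclude 0 before adjustment.

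The makeup of the family is given as sums and ratios, with no test. Summed binding proteins were 195.8 ± 60.5, 220.4 ± 61.8 and 266.8 ± 67.0 TPM (SD, n = 6) in controls, at 2 weeks and at 6 weeks, and summed ligands were 17.0 ± 2.95, 18.8 ± 1.15 and 25.9 ± 4.36 TPM. All genes together were shifted upward in TPM, as given above. The ratio within each mouse does not depend on a scale between mice: binding proteins per ligand were 11.4 ± 2.28, 11.8 ± 3.70 and 10.6 ± 3.29, and Igf2r per Igf1r was 5.95 ± 0.869, 6.08 ± 0.270 and 6.14 ± 1.02. Igf2 made up 64.6 ± 15.3%, 58.8 ± 6.09% and 62.9 ± 4.83% of ligand transcripts. In control 4 it was 36.6%, the lowest of all mice. Igfbp7 made up 50.9 ± 6.38%, 50.3 ± 11.1% and 56.5 ± 10% of binding protein transcripts, and Igfbp4 16.7 ± 1.5%, 21.7 ± 4.67% and 16.5 ± 3.37%.

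Mice of one group differed far more in some members than in others. The SD of log2 CPM within groups was 0.633 for Igfbp7, above 98.5% of the 846 tested genes of like level, and 0.0797 for Igf2r, above 7.26% of 179 such genes. Igfbp3 (0.426), Igfbp6 (0.422) and Igf1 (0.408) each lay above at least 90.7% of genes of like level. The median over all tested genes was 0.245. The intervals above follow this spread: the same 6 mice per group bound a change of Igf2r closely and one of Igfbp7 loosely.

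The rest of the IGF axis was described from a list of 53 genes, of which 50 were found and 45 tested. Igfbp1 had 1 count in all, Insrr at most 7 in a mouse, Igf2bp1 at most 1, and Ins1 and Ins2 were listed at 0 in every mouse; H19, Igf2os and Airn were not analysed here. Igfals, the serum partner of Igfbp3, was tested and averaged 0.594 CPM in controls and 0.413 at 6 weeks (adjusted P = 0.559). At 2 weeks 4 of the 45 were called (3 higher, 1 lower; 8.89%, against 5.04% of all genes), at 6 weeks 15 (4 higher, 11 lower; 33.3%, against 25%), and between the times 6 (3 higher, 3 lower; 13.3%, against 5.32%). On the library total the same counts were 5 (5 higher, 0 lower), 20 (18 higher, 2 lower) and 6 (6 higher, 0 lower). That scale called 11.9%, 38.6% and 7.98% of all genes in these comparisons, most of them higher. The count at 2 weeks fell to 0 without control 6, 2 weeks 5 or 2 weeks 6, and to 2 without control 2, 3 or 5 or without 2 weeks 1, 2 or 3. The count between the times fell to 1 without 2 weeks 2 or without 6 weeks 1, 3 or 6, to 2 without 2 weeks 1 or 4 and to 3 without 2 weeks 3.

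Of the genes called, the adaptors and regulators next to the receptors are described first. Irs1, the main docking protein of the IGF-I and insulin receptors, ranged from 95.2 over 100.8 to 112.1 CPM in controls, from 75.1 over 85 to 103.2 at 2 weeks and from 53.0 over 62.2 to 87.2 at 6 weeks. Every mouse at 6 weeks lay below every control, and groups did not overlap in one direction or the other for 9.23% of all genes. Irs1 fell by 0.65 on the log2 scale (adjusted P = 0.000119; -0.39 on the library total, adjusted P = 0.00692). Grb14, an adaptor that inhibits the insulin receptor, fell by 0.57 (adjusted P = 0.000521; -0.31 on the library total, adjusted P = 0.0105). With log2(TPM + 1) both were below control without passing (adjusted P = 0.0741 for Irs1 and 0.0762 for Grb14). Shc1, the adaptor that leads to Ras, rose at 2 weeks (log2 fold change 0.24, adjusted P = 0.0363) and at 6 weeks (0.47, adjusted P = 4.83e-05), from 35.2 to 43.7 CPM in controls to 47.2 to 59.1 at 6 weeks. Ptpn1, a phosphatase that switches off insulin receptor signaling, also rose at 2 weeks (0.25, adjusted P = 0.0480) and at 6 weeks (0.50, adjusted P = 6.87e-05), and for Shc1 and Ptpn1 the call at 6 weeks held in all 31 alternatives.

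Insr, the insulin receptor and closest relative of Igf1r, fell by 0.29 at 6 weeks (adjusted P = 0.00158), but was 0.13 above control with log2(TPM + 1) and past no threshold there or on the library total. Ghr, the growth hormone receptor, fell by 0.22 at 2 weeks and 0.32 at 6 weeks (adjusted P = 0.0303 and 0.000478), and Inppl1 fell by 0.27 at 6 weeks (adjusted P = 0.0102). Both turned to the other sign with log2(TPM + 1), at 0.08 and 0.09 for Ghr and 0.14 for Inppl1. On the library total neither was called, with Ghr at -0.07 and -0.06 (adjusted P = 0.449 and 0.430) and Inppl1 at -0.0019 (adjusted P = 0.983). Socs2, a feedback inhibitor of growth hormone signaling, ranged from 16.9 to 28.3 CPM in controls, from 24.7 to 51.2 at 2 weeks and from 33.3 to 42.9 at 6 weeks. It rose by 0.61 at 2 weeks (adjusted P = 0.0350) with overlapping groups, and by 0.55 at 6 weeks (adjusted P = 0.0164) with every mouse above every control. At 2 weeks 2 of the 45 genes, Ghr and Ptpn1, did not overlap with controls, against 3.24% of all genes. Stc1, an inhibitor of pappalysin, was 2.86 to 9.22 CPM in controls, 2.35 to 3.58 at 2 weeks and 4.52 to 9.25 at 6 weeks. Control 5 alone reached 9.22 CPM. The other controls were at 2.86 to 4.53 CPM and met the 6-week group only at its lowest mouse. On the library total Stc1 was called higher at 6 weeks (log2 fold change 0.90, adjusted P = 0.00613) but not called at 2 weeks (-0.52, adjusted P = 0.207). Its log2 fold change against control with TMM was -0.67 at 2 weeks (adjusted P = 0.150) and 0.63 at 6 weeks (adjusted P = 0.0603), neither of them called. Between the times it rose by 1.31 (adjusted P = 0.00848; past the threshold in all 31 alternatives). Irs1, Grb14 and Insr were lower at 6 than at 2 weeks by -0.41, -0.40 and -0.22 (adjusted P = 0.0236, 0.0332 and 0.0410), and Shc1 and Ptpn1 higher by 0.23 and 0.25 (0.0467 and 0.0485). On the library total the 3 lower calls were lost, at -0.30, -0.29 and -0.11 (adjusted P = 0.0868, 0.0527 and 0.336), as they were with log2(TPM + 1) (adjusted P = 0.176, 0.114 and 0.421). Shc1 and Ptpn1 stayed past the threshold on the library total but not with upper quartile scaling (adjusted P = 0.0538 and 0.0531), and Ptpn1 not with log2(TPM + 1) (adjusted P = 0.23).

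The named calls at 6 weeks against control held with each of the 18 mice left out in turn, as did Stc1 between the times, but the other calls did not. At 2 weeks Ghr was no longer called without control 2 or 6 or without 2 weeks 2, 5 or 6 (adjusted P up to 0.0668), and Socs2 without control 1 or 6 or without 2 weeks 3, 5 or 6 (up to 0.0826). Shc1 was no longer called at 2 weeks without control 3, 5 or 6 or without 2 weeks 1, 4, 5 or 6 (up to 0.0865), and Ptpn1 without 13 of the 18 mice (up to 0.112), the exceptions being control 1, 2 weeks 4 and 6 weeks 1, 5 and 6. Between the times, Irs1 was no longer called without 2 weeks 2 or without 6 weeks 1, 3 or 6 (up to 0.0598), Grb14 without 2 weeks 1, 2, 4 or 5 or without 6 weeks 1, 2, 3 or 6 (up to 0.0784), and Insr without 2 weeks 1, 2, 3, 4 or 6 or without 6 weeks 1, 3, 5 or 6 (up to 0.0974). Shc1 was called between the times without control 2, 3, 4 or 6, 2 weeks 5 or 6 weeks 4 and not without any of the other 12 mice (up to 0.106), and Ptpn1 without control 1, 4 or 6, 2 weeks 6 or 6 weeks 5 and not without any of the other 13 (up to 0.114).

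**Figure D5:**
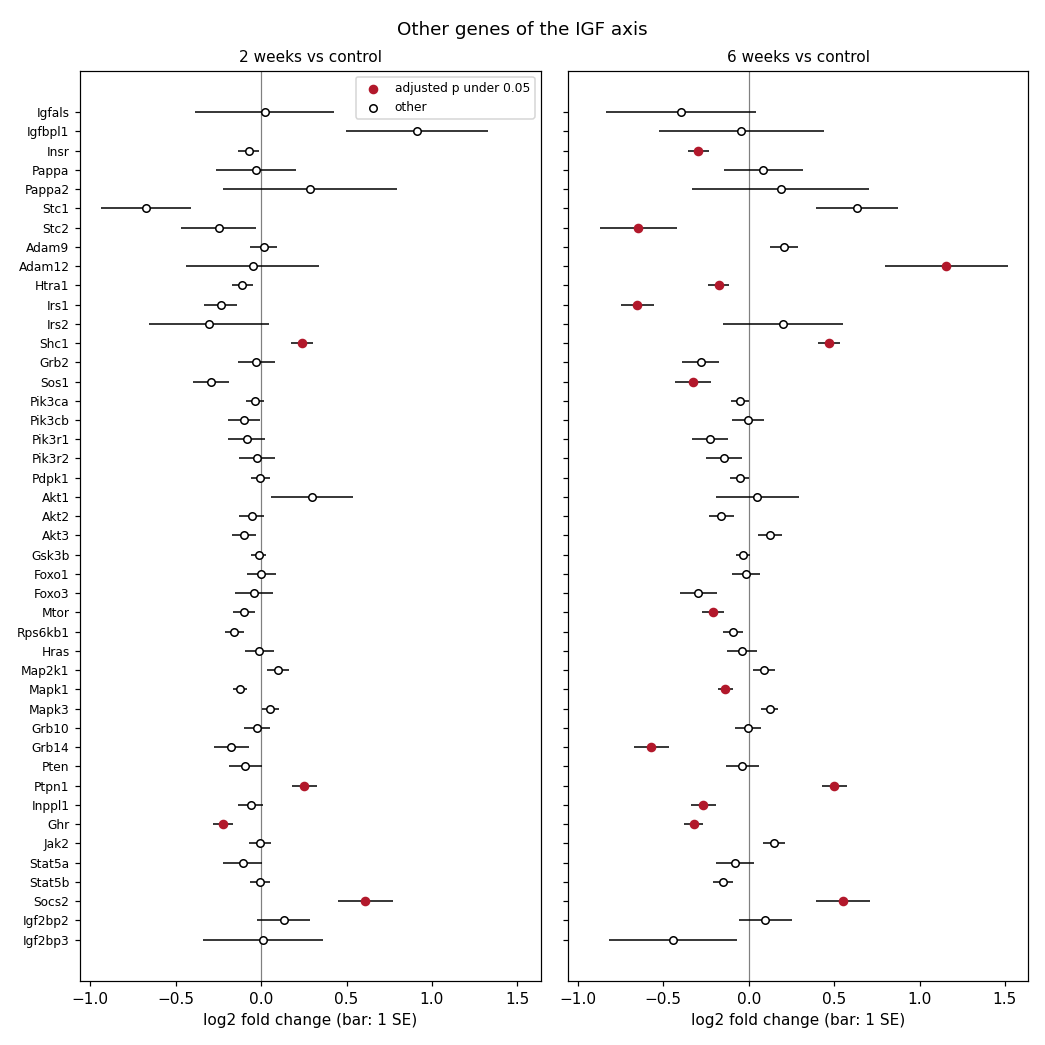
Log2 fold change (horizontal axis; bars are 1 SE) of 44 of the 45 tested genes of the wider IGF axis at 2 weeks and at 6 weeks against control, from edgeR with TMM scaling. Filled red points passed an adjusted P of 0.05 over all genes, 4 of those shown at 2 weeks and 14 at 6 weeks.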

How the data were processed

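RNA was sequenced from the septum of 18 mice with a KAPA RNA HyperPrep library on an Illumina NovaSeq. The authors aligned reads with STAR to GRCm38, estimated transcript abundance with Salmon 1.0 and collapsed it to gene level with tximport; the labels' processing notes also name CASAVA 1.8. The deposited expected counts are estimated by Salmon, need not be whole and were not normalized between mice. TPM values, also deposited, divide by transcript length and are scaled within each mouse only.

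Rounded counts were fitted with edgeR 4.0.16 (R 4.3.3) by 1 quasi-likelihood model of the 3 groups, after TMM scaling and a filter that kept any gene reaching 0.23 CPM in 6 or more mice. Two-sided tests were used, with Benjamini-Hochberg adjustment over all genes tested. SEs were obtained from the F statistic, as the size of the log2 fold change over the root of F. Alternatives were DESeq2 1.42.0, limma 3.58.1 with voom, other scalings and filters, log2(TPM + 1) and log2(TPM + 0.1), and leaving out each of 18 mice in turn. Only the edgeR fit with TMM scaling and this filter was tested on simulated data. The alternatives and the other steps were not. Floors cover counting error only, and P values measure the spread between these mice.

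Gene coordinates follow GENCODE M21 (GRCm38), and promoter windows are from RefSeq; all 10 genes matched. All 10 members are named, and of the wider list up to 8 called genes per comparison with the smallest adjusted P, except 1 gene that is counted in the list but not reported here. The members and lists were chosen with earlier results of these data known. Over all genes, deviations of same-numbered mice of different groups were weakly correlated (-0.08 to 0.11), and the replicate number was left out of the main model. Y-linked transcripts did follow the replicate number in every group, as given above.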

Additional observations from a re-analysis of the deposited data

Results flagged for a closer look

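Of 69 sets of 6 mice examined, 8 had a mouse far from the other 5; chance gives about 1 in 20. Control 4 stood apart for Igf1 (48.6 CPM, others 14.8 to 22.4), for the summed fibroblast markers (4004 CPM, others 1193 to 1788) and for the summed macrophage markers (496.8 CPM, others 166.5 to 265.5). The mouse 6 weeks 2 stood apart for Igfbp4, at 140.8 CPM against 81.8 to 98.4, and for Igf2r, at 419.8 CPM against 461.7 to 478. Control 5 stood apart for Igfbp6, at 20.9 CPM against 12.7 to 15.5, and for Stc1, at 9.22 CPM against 2.86 to 4.53. The mouse 2 weeks 6 had Ptpn1 at 35.3 CPM, against 28.4 to 30.7 in the others.

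The effect at 6 weeks differed from that at 2 weeks, by the test of 6 weeks against 2 weeks, for 6 of the 45 tested genes of the wider axis. This was 13.3%, against 5.32% of all genes, and only the call of Stc1 held with each of the 18 mice left out in turn. The effect at 6 weeks minus that at 2 weeks, on the log2 scale, was 1.31 for Stc1, 0.25 for Ptpn1, 0.23 for Shc1, -0.22 for Insr, -0.40 for Grb14 and -0.41 for Irs1. No member of the family passed this test in the 3-group edgeR model with TMM scaling and all 18 mice, where Igf2 came nearest at 0.48 (adjusted P = 0.0676); other edgeR settings called Igf2, and Igfbp4 without the mouse 6 weeks 2.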

How the results depend on the processing

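The family members gave 837 values under the alternatives, of which 28 passed the threshold and 785 kept the sign of the reported value. At 2 weeks 1 member was called on the library total, with log2(TPM + 1) and with log2(TPM + 0.1), and 0 when any 1 mouse was left out. Over all genes these 3 settings called 11.9%, 18.7% and 20.1%. At 6 weeks 3 were called on the library total and 4 with either TPM scale (Igf1, Igf2, Igf1r and Igf2r), and 0 to 1 when 1 mouse was left out. The share over all genes was 38.6% on the library total and 49.6% with either TPM scale. Between the times 2 were called on the library total and with log2(TPM + 1), 1 with DESeq2, voom quality weights, only the 2 groups, the Y-linked covariate or an adjusted P under 0.10, and 0 to 1 with 1 mouse left out. Of all genes, 7.98% were called on the library total and 7.13% with log2(TPM + 1). The share was 6.17% to 8.05% with DESeq2, voom quality weights, only the 2 groups or the Y-linked covariate.

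Of the wider axis, 4 genes were called at 2 weeks. Under alternatives the count was as follows, with the share of all genes called under the same setting in parentheses. It was 2 with voom quality weights (5.24%) and with only the 2 groups (4.38%), and 1 with no filter (2.7%). With log2(TPM + 1) it was 9 (18.7%) and with log2(TPM + 0.1) 10 (20.1%). It was 0 with a fold change above 1 on the log2 scale in addition, and 0 to 4 with 1 mouse left out. At 6 weeks the 15 became 25 with either TPM scale (49.6% of all genes), 10 with only the 2 groups (21.2%) and 21 at an adjusted P under 0.10. The count was 1 with the fold-change limit (Adam12, named after its values were seen) and 10 to 18 with 1 mouse left out. Between the times the 6 became 3 with no filter (2.67% of all genes), 1 with the fold-change limit (Stc1) and 1 to 7 with 1 mouse left out. Of 558 values of the named called axis genes, 434 stayed past the threshold in their direction. Of the 558, 8 were reversed, with log2(TPM + 1) and log2(TPM + 0.1) in turn. At 6 weeks they were 0.13 and 0.13 for Insr, 0.0891 and 0.0904 for Ghr, and 0.14 and 0.14 for Inppl1. At 2 weeks they were 0.0819 and 0.083 for Ghr. Insr at 2 weeks was not called with TMM (log2 fold change -0.07, adjusted P = 0.543) and was 0.24 and 0.25 on these 2 scales. The cause was not tested.

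The replicate number, used as a replicate block, gave 1 member between the times (Igf2, adjusted P = 0.0489) and 0, 15 and 3 axis genes at 2 weeks, at 6 weeks and between the times. With this block 3.87%, 23.6% and 3.62% of all genes were called in these comparisons. Correlations of same-numbered mice ranged from -0.08 to 0.11, 2 of 18 over 0.1, and their own number was highest in 5 of 18.

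In CPM, which is not divided by length, the summed binding proteins were 519.3, 480.6 and 499.2 in controls, at 2 weeks and at 6 weeks, and the ligands 58.5, 53.0 and 65.0. In the same order binding proteins per ligand were 8.98, 9.06 and 7.88, and Igf2r per Igf1r 10.2, 10.4 and 10.5. With 1 mouse of a group left out, the TPM sums of binding proteins ranged from 174.6 to 209.3, 204.3 to 238.2 and 248.5 to 286.3. Counts over all genes moved by over 1.5 times from 758 at 2 weeks to 1216 with DESeq2, 1788 on the library total, 2813 and 3026 with the TPM scales, and as low as 453 with 1 mouse left out; from 3759 at 6 weeks to 5816 on the library total and 7472 and 7463 with the TPM scales; and from 801 between the times to 1202 on the library total, and as low as 327 with 1 mouse left out.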

Other observations

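Ratios between members within a mouse need no scaling between mice. Of the 36 ratios between the 9 tested members, 1 did not overlap between controls and 2 weeks, and 0 did not overlap in either other comparison. That ratio, Igfbp4 counts per Igfbp5 count, was 0.351 to 0.456 in controls and 0.555 to 0.729 at 2 weeks, higher in 6 of 6 mice. At 6 weeks it was 0.361 to 0.479 in 5 mice and 0.835 in the mouse 6 weeks 2. It was picked out after the values of all 36 were seen, and no test is given. Of single genes, 3.24% did not overlap between controls and 2 weeks. The share among ratios of other gene pairs was not computed, so 1 of 36 cannot be set apart from it.

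Y-linked transcripts were at 0 to 1.76 CPM in replicates 1 to 3 of every group and at 128.6 to 164 CPM in replicates 4 to 6. With this difference in the model, 72 genes (0.478% of those tested) were called for it and 0 members, with edgeR. The member with the smallest adjusted P was Igfbp6, at 12.0 ± 2.86 CPM in the 9 mice low in Y-linked transcripts and 16.4 ± 4.51 CPM in the other 9 (SD; log2 difference 0.46, adjusted P = 0.251). Igf2 was 38.5 ± 7.23 CPM in the former and 31.6 ± 7.30 CPM in the latter (log2 difference -0.28, adjusted P = 0.278).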
